A study of Mus musculus with 17 samples.

Results

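The AP-1 and immediate early genes described here are *Fos*, *Fosb*, *Fosl2*, *Jun*, *Junb*, *Jund*, *Atf3*, *Egr1*, *Ier2* and *Zfp36*. They were chosen by name, and all 10 were found among the 23282 gene symbols of the deposited ERCC-calibrated table. RNA was measured by Smart-seq2 (polyadenylated RNA copied from an oligo(dT) primer and amplified) in testicular cells of C57BL/6 mice (C57BL/6J in the study's methods), released with collagenase and trypsin and sorted by FACS on Hoechst and propidium iodide. The sorted populations were spermatogonia (SPG), spermatocytes before leptotene (PreL), and spermatocytes in leptotene or zygotene (LZ). The labels give the genotypes as Wildtype (WT) and Stra8-cre_Nat10_KO (SKO). In SKO mice, a Cre expressed from the germ cell gene *Stra8* excises floxed exons of *Nat10*, and the study writes the genotype as *Nat10* fl/-;Stra8-Cre, in which somatic cells keep the floxed allele as their only copy. Each genotype was represented by 3 libraries in SPG and PreL, whereas LZ had 2 WT and 3 SKO libraries. The alleles carried by the WT animals of this experiment, the age at sorting and the number of mice behind a library are not given in the sources used here, so p-values measure only the spread between these libraries.

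AP-1 is a dimeric transcription factor of basic leucine zipper proteins. FOS proteins bind DNA mainly together with a JUN partner, whereas JUN proteins also pair among themselves or with ATF proteins such as ATF3. Many of these genes belong to the immediate early genes, which are transcribed within minutes of a stimulus such as a growth factor, stress or tissue handling, through kinases (ERK, JNK and p38) and resident factors (SRF with ELK1, CREB) that need no new protein synthesis, and their mRNAs are short-lived. In the testis, JUND is required for male fertility in mice, and AP-1 factors bind regulatory DNA of steroidogenic genes in Leydig cells.

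Library depth, recovered as whole reads from the calibrated values, was between 9885136 and 13820953 reads in 14 libraries and between 5812380 and 7609420 in the 3 SKO LZ libraries, where low counts are less precise. Reads amplified without molecular identifiers are not independent molecules. *Nat10*, the targeted gene, was lower in each SKO library (6.83 to 22.6 RPM, reads scaled to library depth) than in each WT library (23.1 to 37.2 RPM). Rescaled values are the calibrated values divided by a median-of-ratios size factor over the 17 libraries, and serve to show each library. Fold changes were fitted on log2(value + 10) after a separate rescaling over the libraries of each comparison, so they differ from ratios of the printed values, and they understate the change of low genes. Without the rescaling, on the calibrated scale itself, the median gene moved by -0.25 in SPG, 0.73 in PreL and -0.25 in LZ for SKO against WT (log2), and the genotype differences below are relative to the median gene. A gene was called higher or lower at an adjusted p-value under 0.05 (limma, Benjamini-Hochberg over all genes tested) and a log2 fold change beyond 1 in size.

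In SPG, 8 of the 10 genes were called higher in SKO than in WT and 0 lower, whereas 3.95% of the 12846 genes tested were called higher and 2.06% lower. The 8 were *Fos*, *Fosb*, *Jun*, *Junb*, *Atf3*, *Egr1*, *Ier2* and *Zfp36*, with log2 fold changes from 1.78 to 4.92. *Fosl2* and *Jund* were not called. In PreL, 4 genes (*Fosb*, *Jun*, *Junb* and *Egr1*) were called higher and 0 lower, against 5.32% of 13132 genes called higher and 5.83% lower. In LZ, 8 genes were again called higher and 0 lower, against 13.4% of 13724 genes called higher and 25.8% lower, but here *Fosl2* and *Jund* were among them and *Fosb* and *Ier2* were not. At each stage 0 of the 10 were lower at an unadjusted p-value under 0.05, and edgeR and DESeq2 likewise called 0 lower. The median log2 fold change of the 10 genes was 2.44 in SPG, 1.52 in PreL and 1.77 in LZ, beside 0.00 in SPG, 0.04 in PreL and -0.13 in LZ over all genes tested.

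Each SKO library lay above each WT library of its stage for 9 genes in SPG, 5 in PreL and 10 in LZ, beside 15.2%, 17.4% and 30.3% of all genes tested in those stages. Each SKO library lay below each WT library for 0 of the 10 genes, beside 14.4% of all genes in SPG, 20% in PreL and 39.8% in LZ. The number without overlap in PreL turned on SKO PreL 3, and for *Fos* and *Atf3* also on WT PreL 4, their highest WT PreL library. The number called turned on more than 1 library as well. SKO PreL 3 exceeded the 3 WT PreL libraries for 5 of the 10 genes, whereas SKO PreL 1 did so for 8 and SKO PreL 2 for 9. Without SKO PreL 3, 8 genes were called higher in PreL, and without SKO PreL 1, 0 were, with log2 fold changes that kept their sign. The calls over all genes moved as well. Higher were 1059 of 13230 genes without SKO PreL 3 and 180 of 13072 without SKO PreL 1, beside 699 of 13132 with all libraries. In LZ, WT LZ 2 held more than WT LZ 3 for all 10 genes. Against WT LZ 3 alone, the log2 fold changes in LZ ranged from 1.69 (*Jund*) to 4.43 (*Atf3*). Against WT LZ 2 alone, they ranged from 0.17 (*Ier2*) to 2.26 (*Jun*). Each of these fits had 1 WT library, which was assumed to vary like the SKO libraries.

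**Figure D1:**
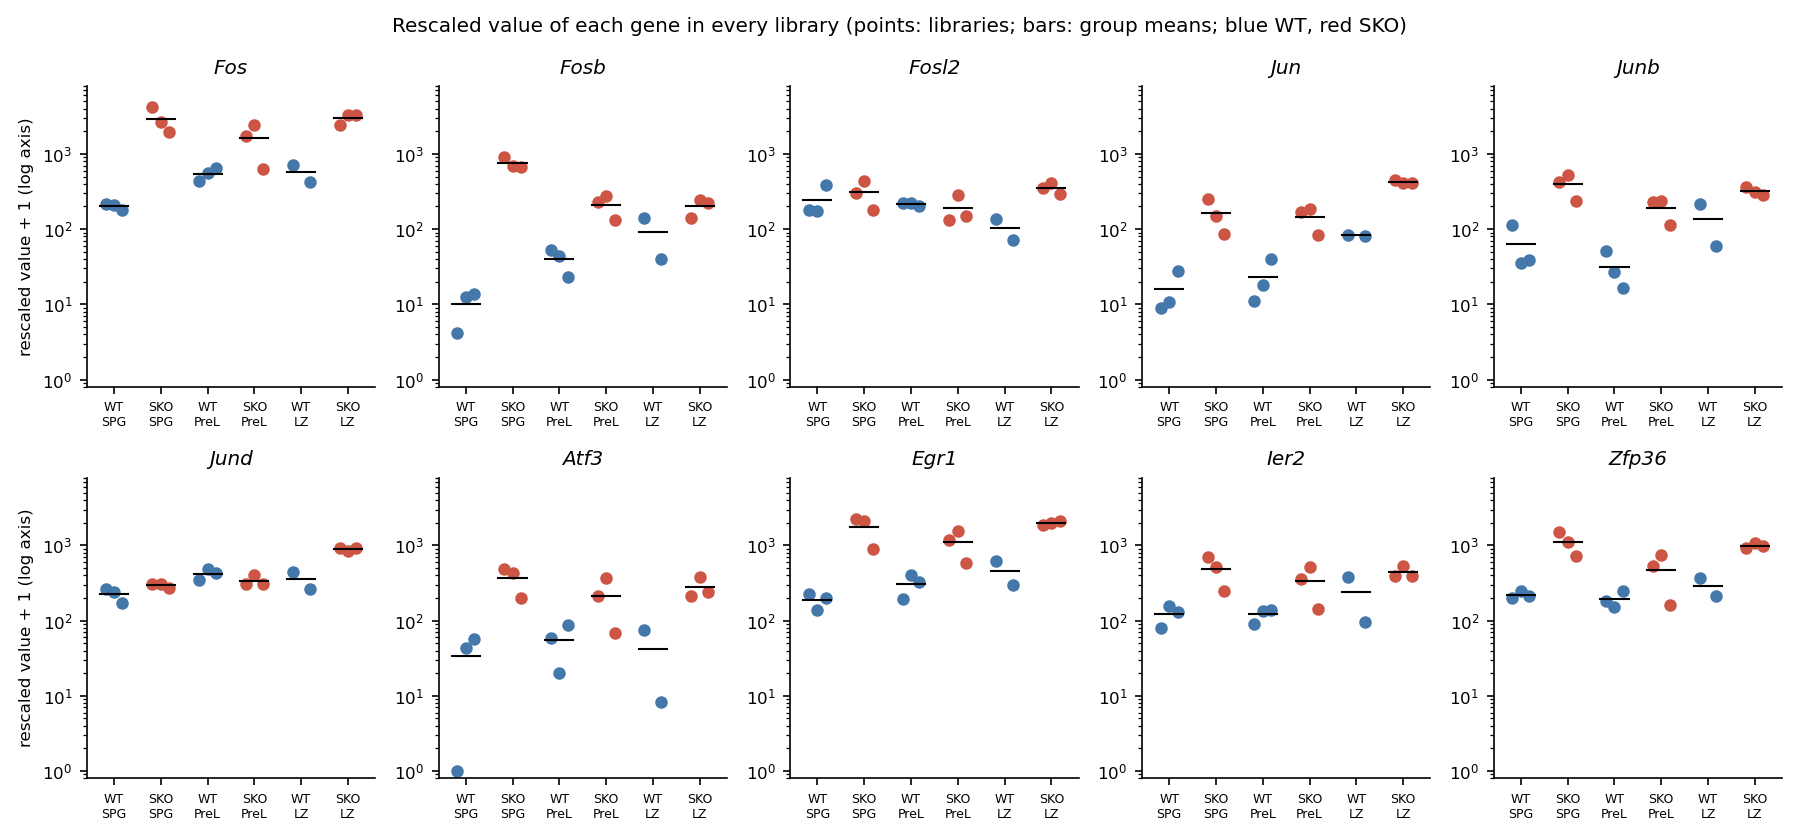
Rescaled value + 1 (log axis) of each of the 10 genes in the 17 libraries, by genotype and stage, with points for libraries in replicate order and bars for group means. In SPG the SKO points lie above the WT points in each panel but *Fosl2*, and SKO PreL 3, the rightmost red PreL point, is the lowest of its group for 9 of the 10 genes.

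**Figure D2:**
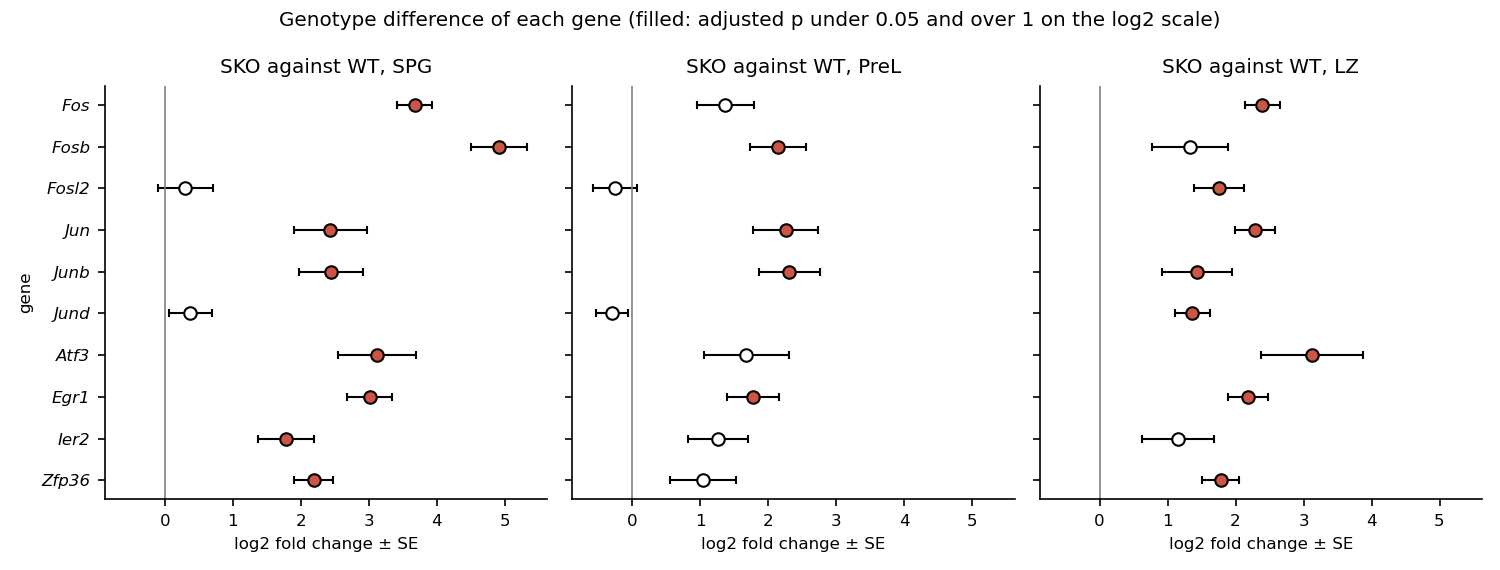
Log2 fold change of SKO against WT for each gene and stage, with bars for the standard error and filled points for called genes. *Fosb* has the largest difference in SPG (4.92), and *Fosl2* and *Jund* lie near 0 in SPG and PreL and above 1 in LZ.

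Markers of several somatic testis cells moved with the genotype in the same libraries. In SPG, 7 of 7 fibroblast-like stromal markers, 7 of 9 macrophage markers, 5 of 7 Leydig cell markers and 2 of 5 peritubular myoid markers tested were called higher in SKO, beside 3.95% of all genes. Their summed rescaled value ranged from 56.3 to 1166 in WT and from 6229.6 to 12665 in SKO for stromal markers, from 212 to 316 and from 2486 to 4226 for macrophage markers, and from 126 to 335 and from 1299 to 4864 for Leydig markers. *Dcn*, the most abundant stromal marker and a collagen-binding proteoglycan, was at 678, 9.71 and 849 in WT SPG and at 9400.5, 7375 and 4894 in SKO SPG, and *Cyp17a1*, a steroidogenic enzyme of Leydig cells, at 10.9, 1.94 and 109 and at 1136, 907 and 436.5. *Hsd3b1*, also of Leydig cells, had no read in 2 of the 3 WT SPG libraries. Between 2 and 4 of the 7 Leydig markers had no read in a WT SPG library, and none was at 0 in SKO SPG. Sertoli cell markers were not called in SPG (0 of 5 tested), and their sums overlapped (205 to 288 in WT, 196 to 403 in SKO). Peritubular sums did not overlap in SPG (50.5 to 245 in WT, 777 to 1463 in SKO), whereas in PreL and in LZ 0 of the 3 peritubular markers tested were called higher and 1, *Actg2*, lower.

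In PreL, 6 of 7 Leydig, 4 of 6 stromal, 3 of 7 Sertoli and 2 of 9 macrophage markers tested were called higher in SKO, beside 5.32% of all genes. SKO PreL 3, the library with the lowest values of 9 of the 10 genes, also had the lowest sums of these lists, with 924 for Leydig markers beside 5740.0 and 9194 in the other SKO PreL libraries, and 662 for Sertoli markers beside 5923 and 6725. Endothelial markers went the other way, with a sum of 599 in SKO PreL 3 beside 465 and 455. Their WT PreL sums were 321 to 404, and 0 of the 4 tested were called. In LZ, 5 of 6 stromal, 5 of 7 Leydig, 4 of 6 macrophage and 1 of 7 Sertoli markers were called higher, beside 13.4% of all genes, a share near that of the Sertoli list. Sertoli markers were high in both genotypes of LZ (2469 and 8335 in WT, 7527 to 9013 in SKO), with the higher WT sum in WT LZ 2, the library with more of all 10 genes. Of the germ cell markers, *Kit* and *Stra8* of differentiating spermatogonia and *Sycp3* and *Sycp1* of the synaptonemal complex were abundant in each library. Late germ cell markers differed as well. Of the spermatid markers, 8 of 8 were called lower in SKO SPG and SKO LZ and 7 of 8 in SKO PreL. Over all genes, 2.06% were called lower in SPG, 25.8% in LZ and 5.83% in PreL. WT PreL libraries, labelled as pre-leptotene cells, held spermatid marker sums of 13901 to 22682. The study's own immunofluorescence counts put most cells of its pre-leptotene sort at that stage. In bulk samples fewer cells of a type and less RNA per cell cannot be told apart, and the part of these marker differences in the values of the 10 genes was not tested.

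**Figure D3:**
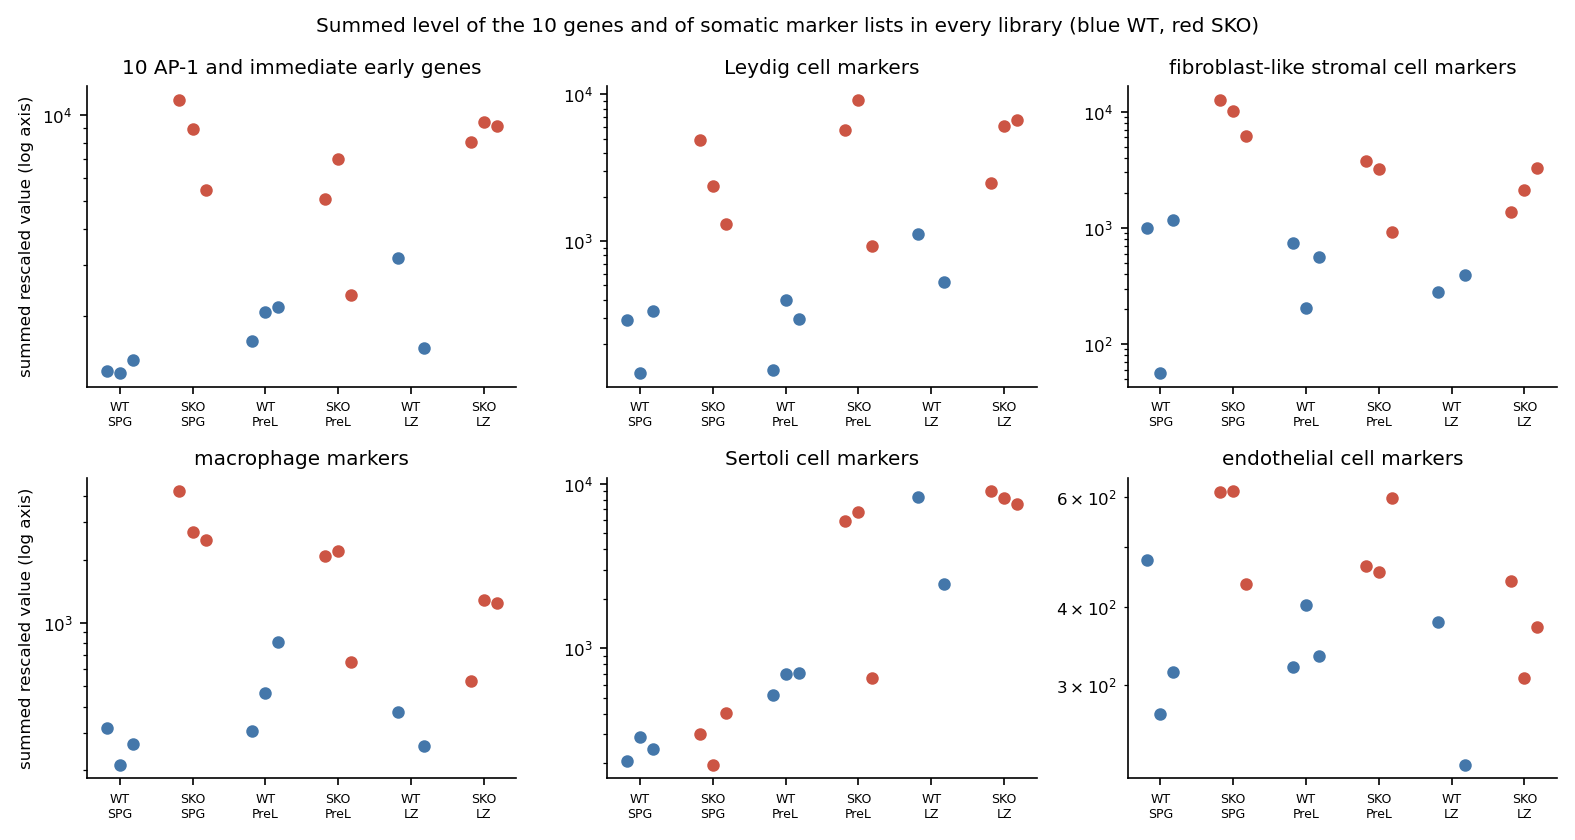
Summed rescaled value (log axis) of the 10 genes and of 5 somatic marker lists in the 17 libraries, by genotype and stage, with points for libraries in replicate order. Leydig, stromal and macrophage sums are higher in SKO SPG than in WT SPG without overlap, Sertoli sums are not, and SKO PreL 3 is the lowest SKO PreL library for the 10 genes, Leydig, stromal, macrophage and Sertoli markers. The endothelial sum of SKO PreL 3 is the highest of the SKO PreL libraries.

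*Fos* (chr12:85473890-85477273, + strand, GRCm38) encodes the best known partner of JUN. Its rescaled values were 216, 209.8 and 177 in WT SPG and 4144, 2646 and 1971 in SKO SPG, so that the lowest SKO library was far above the highest WT library. The log2 fold change in SPG was 3.68 ± 0.26 (SE, adjusted p = 8.3e-06). In PreL the values were 430.0, 558 and 643 in WT and 1739, 2457 and 632 in SKO, with SKO PreL 3 within the WT range. The difference of 1.37 ± 0.42 missed the threshold (adjusted p = 0.0509) and was 1.93 ± 0.23 without SKO PreL 3 (adjusted p = 0.00113). In LZ the values were 722 and 428 in WT and 2439.9, 3314 and 3259.8 in SKO, with no overlap (2.40 ± 0.25, adjusted p = 0.000224).

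*Fosb* (chr7:19302696-19310051, - strand) encodes a second FOS protein that is induced by the same stimuli. It was nearly silent in WT SPG, with 2, 6 and 7 reads and rescaled values of 3.13, 11.7 and 12.5. In SKO SPG it reached 919, 694 and 679 (459, 312 and 389 reads), the largest difference of the 10 genes, with a log2 fold change of 4.92 ± 0.41 (adjusted p = 1.9e-05) that ranged from 3.18 to 6.41 over pseudocounts and tests because the WT counts are so low. In PreL the values were 51.8, 42.8 and 21.9 in WT and 228, 272 and 132 in SKO, and each SKO library was above WT (2.15 ± 0.41, adjusted p = 0.00827). In LZ, SKO held 142, 244 and 222, and WT 141 and 38.9, so that SKO LZ 1 and WT LZ 2 were level. The LZ difference of 1.33 ± 0.56 was not called (adjusted p = 0.0814), and was 0.46 against WT LZ 2 alone (adjusted p = 0.451) and 2.15 against WT LZ 3 alone (adjusted p = 0.0298).

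*Fosl2* (chr5:32135801-32157842, + strand), whose product FRA2 is an AP-1 subunit with a later and more lasting induction, was called in LZ but not in SPG or PreL, as was *Jund*. The SPG libraries overlapped, with 179.8, 173 and 379.6 in WT and 304, 438 and 179.8 in SKO (0.30 ± 0.40, adjusted p = 0.690). Values in PreL were 219, 224 and 201 in WT and 132, 284 and 146 in SKO, a difference of -0.26 ± 0.33 (adjusted p = 0.615) that turned to 0.43 on the calibrated scale. The LZ values were 134 and 70.3 in WT and 349, 404 and 288 in SKO (1.76 ± 0.37, adjusted p = 0.00601).

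The 250 bases upstream of the RefSeq start site (GRCm38.p6) are shown for *Fos*, *Fosb* and *Junb*, 3 genes called higher in SKO SPG whose windows hold a CRE half-site, the first letters of the CREB and ATF binding site. RefSeq windows were matched for 8 of the 10 genes, of which those of *Fosl2*, *Atf3* and *Zfp36* lie within the gene as GENCODE annotates it and that of *Jund* lies apart from, and upstream of, the annotated gene. Capitals mark the CRE half-site, TGACG on the printed strand.
Fos, chr12:85473640-85473889, + strand: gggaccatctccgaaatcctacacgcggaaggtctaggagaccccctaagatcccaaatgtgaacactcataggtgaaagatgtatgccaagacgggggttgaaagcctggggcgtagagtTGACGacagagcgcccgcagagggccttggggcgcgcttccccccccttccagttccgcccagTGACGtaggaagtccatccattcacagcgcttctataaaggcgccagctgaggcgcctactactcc
Fosb, chr7:19310046-19310295, - strand: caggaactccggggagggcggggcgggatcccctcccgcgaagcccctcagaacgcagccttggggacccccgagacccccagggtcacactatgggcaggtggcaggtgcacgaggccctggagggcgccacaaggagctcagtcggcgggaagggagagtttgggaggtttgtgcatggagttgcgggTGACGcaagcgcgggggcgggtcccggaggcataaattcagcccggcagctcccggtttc
Junb, chr8:84978749-84978998, - strand: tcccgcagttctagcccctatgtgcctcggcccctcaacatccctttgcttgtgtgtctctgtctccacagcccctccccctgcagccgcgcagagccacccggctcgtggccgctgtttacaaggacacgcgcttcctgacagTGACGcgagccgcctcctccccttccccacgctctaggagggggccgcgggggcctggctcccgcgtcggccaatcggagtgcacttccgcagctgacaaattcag
The matches in *Fos* begin 129 and 66 bases before the start, that in *Fosb* 60 and that in *Junb* 106 bases before it. A CRE half-site (TGACG or CGTCA, searched on both strands after the sequences had been seen) was in 4 of the 8 windows (*Atf3* as well), and in 17.8% of 32851 promoter windows of the same length. The full CRE TGACGTCA, which contains the half-site, and the AP-1 site (TGAGTCA or TGACTCA) were in none of the 8, beside 1.55% and 4.46% of all windows. A CArG box, the SRF site, was in the *Zfp36* window, which lies inside that gene's annotated exon, and in 1.47% of all windows. No data on binding or chromatin were analysed here, and a match is only a run of letters.

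*Jun* (chr4:95049034-95052222, - strand) encodes the subunit that pairs with itself or with FOS. WT SPG libraries held 7.82, 9.71 and 26.9, from 5, 5 and 15 reads, and SKO SPG libraries 252, 149 and 85.6. The log2 fold change was 2.44 ± 0.53 (adjusted p = 0.0108), ranged from 1.27 to 3.44 over the other settings, and was not called when no filter was applied to low genes (adjusted p = 0.0634). In PreL the values were 9.95, 17.1 and 39.3 in WT and 169.5, 183 and 83.3 in SKO, and SKO PreL 3 still held more than each WT library (2.26 ± 0.48, adjusted p = 0.0128). The LZ libraries were the closest to one another, with 83.0 and 79.6 in WT and 447, 404 and 409.6 in SKO (2.29 ± 0.29, adjusted p = 0.000575), and *Jun* was called in LZ with either WT library left out. Its exons overlap those of the antisense gene *Junos*, and the libraries carry no strand information, so reads of the shared stretch cannot be assigned to 1 of the 2.

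*Junb* (chr8:84974484-84978718, - strand) encodes a JUN protein that often acts in place of or against JUN. It was at 114, 35.0 and 37.6 in WT SPG and at 423, 529 and 236 in SKO SPG (2.44 ± 0.47, adjusted p = 0.00547). In PreL, WT held 49.8, 25.7 and 15.3 and SKO 226, 236 and 112, again without overlap (2.31 ± 0.45, adjusted p = 0.00918). The LZ values of 212 and 59.2 in WT and 365, 308 and 284 in SKO gave a smaller difference of 1.44 ± 0.51 (adjusted p = 0.0483), which was 0.55 ± 0.25 against WT LZ 2 alone (adjusted p = 0.175). Its exons overlap *Prdx2*.

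*Jund* (chr8:70698949-70700616, + strand) encodes the JUN protein that most cells make without a stimulus. Its values were 259.5, 239 and 168 in WT SPG and 310.4, 302 and 267 in SKO SPG, which did not overlap but differed by only 0.38 ± 0.32 (adjusted p = 0.500). In PreL the difference was -0.30 ± 0.23 (adjusted p = 0.397), with 346, 485 and 431 in WT and 305, 409 and 303 in SKO, and turned to 0.41 on the calibrated scale. In LZ it was called, with 440.3 and 263 in WT and 920.4, 843 and 924 in SKO (1.37 ± 0.26, adjusted p = 0.00369). Against WT LZ 2 alone the LZ difference was 0.998 ± 0.118 (adjusted p = 0.0151), just under the fold threshold. Its exons overlap the gene model *Gm11175*.

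*Atf3* (chr1:191170296-191218039, - strand) encodes a stress-induced ATF protein that dimerizes with JUN. WT SPG libraries held 0, 42.7 and 55.5, where 0 reads in WT SPG 1 allow up to 0.230 RPM (3 reads, counting error only), and SKO SPG libraries 487, 422 and 201 (3.12 ± 0.58, adjusted p = 0.00435). The SPG difference ranged from 1.93 to 4.41 over the other settings and was not called by DESeq2 (adjusted p = 0.0837). The PreL values of 57.7, 19.2 and 85.2 in WT and 215, 362 and 67.0 in SKO overlapped through SKO PreL 3 (1.68 ± 0.62, adjusted p = 0.0910), and the difference was 2.31 ± 0.53 without it (adjusted p = 0.0194). In LZ the values were 74.5 and 7.40 in WT, the widest gap between the WT LZ libraries among the 10 genes, and 212, 379 and 238 in SKO. The LZ difference of 3.12 ± 0.75 (adjusted p = 0.0105) was 1.76 ± 0.45 against WT LZ 2 alone (adjusted p = 0.0600) and 4.43 ± 0.45 against WT LZ 3 alone (adjusted p = 0.00895).

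*Egr1* (chr18:34859823-34864984, + strand) encodes a zinc finger transcription factor whose mRNA is induced by the same stimuli. Its rescaled values were 222, 136 and 199 in WT SPG and 2219, 2101 and 883 in SKO SPG (3.01 ± 0.33, adjusted p = 0.000179). In PreL, WT held 191, 404 and 326 and SKO 1192, 1570.2 and 583, all above WT (1.78 ± 0.38, adjusted p = 0.0132). In LZ the values were 623 and 292 in WT and 1863, 1961 and 2123 in SKO (2.18 ± 0.30, adjusted p = 0.000795). *Jun*, *Junb* and *Egr1* were the 3 of the 10 genes called at all 3 stages.

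*Ier2* (chr8:84661331-84662852, - strand), a single-exon gene for a nuclear immediate early protein, was at 79.7, 155 and 131 in WT SPG and at 707, 516 and 249.7 in SKO SPG (1.78 ± 0.41, adjusted p = 0.0137), a call that was lost when SKO SPG 1 (1.48 ± 0.45, adjusted p = 0.0637), SKO SPG 3 (1.70 ± 0.49, adjusted p = 0.0556) or WT SPG 1 (1.54 ± 0.44, adjusted p = 0.0534) was left out. Its lowest SKO SPG library was still above the highest WT SPG library. SKO PreL 3 (142) was barely above the highest WT PreL library (138), beside 352 and 517 in SKO PreL 1 and 2, and the PreL difference was 1.26 ± 0.44 (adjusted p = 0.0762). SKO LZ 3 (389) was likewise close to WT LZ 2 (378), WT LZ 3 held 94.4, and SKO LZ 1 and 2 held 392 and 528. The LZ difference of 1.15 ± 0.53 was not called (adjusted p = 0.108), and was 0.17 against WT LZ 2 alone (adjusted p = 0.631) and 2.08 against WT LZ 3 alone (adjusted p = 0.0146).

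*Zfp36* (chr7:28376784-28380253, - strand) encodes tristetraprolin, which binds AU-rich elements of short-lived mRNAs and promotes their decay. It was at 200.1, 249 and 211 in WT SPG and at 1516, 1116 and 726 in SKO SPG (2.19 ± 0.28, adjusted p = 0.000524). In PreL the values were 183, 149.6 and 249 in WT and 526, 735 and 162 in SKO, with SKO PreL 3 within the WT range (1.04 ± 0.49, adjusted p = 0.167). In LZ they were 369.9 and 213 in WT and 915, 1073 and 982 in SKO (1.78 ± 0.27, adjusted p = 0.00127). Its exons overlap the gene model *Gm44710*.

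To compare genes with one another, levels were taken per length as RPKM, reads scaled to library depth and to the kb of merged exon. *Jund* led in WT SPG (6.23 ± 1.48, SD, n = 3), followed by *Fos* (3.99 ± 0.50), *Ier2* (3.70 ± 1.01), *Zfp36* (2.95 ± 0.21) and *Egr1* (1.94 ± 0.55). Each *Jund* level there was above each *Fos* level, and *Fos* and *Ier2* overlapped. *Fosb* was last, at 0.0669 ± 0.0370. In SKO SPG the order changed, with *Fos* first (57.6 ± 21.3), then *Egr1* (17.9 ± 7.3), *Zfp36* (15.0 ± 5.1) and *Ier2* (14.9 ± 6.8), which overlapped among themselves, *Jund* next (8.18 ± 0.45), overlapping *Ier2*, and *Fosl2* last (1.47 ± 0.58), overlapping *Jun* (2.36 ± 1.199).

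*Jund* (11.2 ± 1.6) and *Fos* (10.2 ± 1.6) overlapped at the top in WT PreL, and so did *Fos* (11.5 ± 6.1, n = 2) and *Jund* (9.90 ± 5.20) in WT LZ. In SKO PreL, *Fos* was first (33.0 ± 20.3) but overlapped *Egr1* (11.9 ± 5.9) through SKO PreL 3. In SKO LZ, *Fos* (44.3 ± 10.2) lay clear of *Jund* (18.4 ± 0.9), which lay clear of *Egr1* (15.2 ± 1.8). Over the 7 AP-1 subunit genes (*Fos*, *Fosb*, *Fosl2*, *Jun*, *Junb*, *Jund* and *Atf3*), the summed per-length level was 12.4 to 15.6 in WT SPG and 64.8 to 120.8 in SKO SPG, 22.2 to 26.2 and 25.9 to 84.5 in PreL, and 16.1 to 39.1 and 64.6 to 90.2 in LZ. The 3 *Jun* genes made up 46.9% to 65.2% of that sum in WT SPG and 17.2% to 23.7% in SKO SPG, and *Jund* alone 37.6% to 49.4% and 7.12% to 11.9%. *Fos* made up 28.1% to 30.7% in WT SPG and 58.1% to 67.4% in SKO SPG. In SKO LZ, *Fos* was at 50.7% to 58.5% and *Jund* at 20.8% to 27.0%, beside 40.4% to 44.7% and 34.7% to 38.7% in WT LZ.

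**Figure D4:**
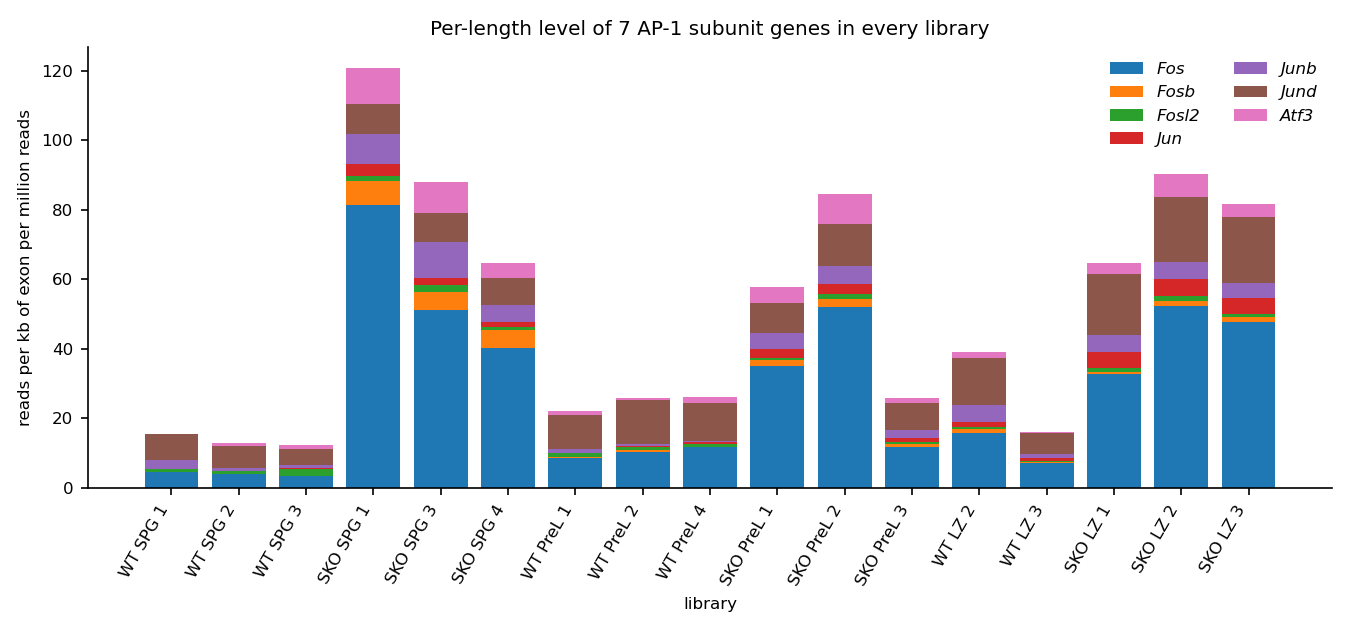
RPKM, reads scaled to library depth and exon length, of the 7 AP-1 subunit genes, stacked for each of the 17 libraries. *Jund* is the tallest segment in WT SPG and *Fos* in each SKO library.

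The stages were then compared within each genotype. From WT SPG to WT PreL, 1 gene, *Fos*, was called higher and 0 lower, beside 2.54% of 12657 genes called higher and 1.21% called lower, with *Jun* under the filter on low values and 9 genes tested. *Fos* rose by 1.32 ± 0.26 on the log2 scale (adjusted p = 0.0171), and *Jund* (0.85 ± 0.28, adjusted p = 0.0835) and *Fosb* (1.12 ± 0.54, adjusted p = 0.210) also lay above WT SPG in each WT PreL library, beside 15.6% of all genes. The *Fos* call was lost without WT SPG 3 and without WT PreL 2. From WT PreL to WT LZ, 0 genes were called in either direction by limma, 0 by edgeR and 1 lower by DESeq2 (*Fosl2*), with 2 higher and 1 lower at an unadjusted p-value under 0.05, beside 18.8% of 13759 genes called higher and 7.8% called lower by limma. *Junb* (1.62 ± 0.69, adjusted p = 0.0957) and *Jun* (1.53 ± 0.63, adjusted p = 0.0871) lay above WT PreL in both WT LZ libraries, and *Fosl2* (-1.203 ± 0.441, adjusted p = 0.0608) lay below, where 34.2% of all genes lay above and 28.8% below. On the calibrated scale, where the median gene rose by 1.86 from WT PreL to WT LZ, 8 of the 10 genes were called higher. Over all genes, 10992 of 13759 were called higher on that scale, so this count does not set the 10 genes apart.

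In SKO, *Fosb* was the 1 gene called lower from SPG to PreL (-1.82 ± 0.29, adjusted p = 0.00992) and 0 were called higher, beside 0.955% of 12882 genes called lower and 1.63% called higher. *Zfp36* (-1.37 ± 0.47, adjusted p = 0.111), *Junb* (-0.98 ± 0.38, adjusted p = 0.155) and *Fos* (-0.97 ± 0.42, adjusted p = 0.200) were not called. On the calibrated scale the median gene rose by 1.01 in this comparison, *Fosb* was not called and 1 gene was called higher, beside 5657 of 12882 genes. From SKO PreL to SKO LZ, *Jund* (1.36 ± 0.16, adjusted p = 0.000363), *Jun* (1.53 ± 0.29, adjusted p = 0.00353) and *Zfp36* (1.26 ± 0.43, adjusted p = 0.0486) were called higher and 0 genes lower, beside 10.6% of 12477 genes called higher and 6.93% called lower. Each SKO LZ library lay above each SKO PreL library for 7 of the 10, beside 25.2% of all genes. *Jun* and *Jund* were called with each of the 6 libraries left out in turn, *Zfp36* only without SKO PreL 2, when 6 genes were called in all. Without SKO PreL 2, 1469 of 12214 genes were called higher. On the calibrated scale, with a median gene at 0.81, 8 genes were called, beside 4409 of 12477 genes called higher.

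The genotype differences of 2 stages were compared by an interaction term over the 17 libraries, called at an adjusted p-value under 0.05. The difference was smaller in PreL than in SPG for *Fosb* (-3.19 ± 0.64, adjusted p = 0.0432) and *Fos* (-2.37 ± 0.51, adjusted p = 0.0496), 2 genes called lower with 0 higher, beside 0.111% of 13530 genes called lower and 0.251% called higher. Both lay close to the threshold, and the number called was 2 without either WT LZ library and 0 or 1 without any other library. It was larger in LZ than in PreL for *Jund* (1.67 ± 0.37, adjusted p = 0.00170) and *Fosl2* (1.99 ± 0.58, adjusted p = 0.0114), beside 15.1% of genes called higher and 23.1% called lower, with 0 of the 10 called lower. Without WT LZ 3 *Jund* was called and *Fosl2* was not, and without SKO PreL 2 *Fos* was called as well (1.45, adjusted p = 0.0312). On the calibrated scale, where the median gene was at -1.12 in this contrast, 0 were called, beside 749 of 13530 genes called higher and 6575 called lower. The remaining genes had differences between stages that did not pass the test, with standard errors of 0.35 to 1.10. These 2 contrasts share the PreL libraries.

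Other genes of the pathway were taken from 3 lists. Of 44 other immediate early genes, 16 of the 41 tested were called higher in SKO SPG and 0 lower (median log2 fold change 1.09), 8 of 40 and 0 in PreL (median 0.60), and 26 of 38 and 1 in LZ (median 1.65), beside 3.95%, 5.32% and 13.4% of all genes called higher in these stages. *Cebpd*, *Id3* and *Nfkbia* were called higher at all 3 stages and 8 genes at none, among them *Mcl1*, *Klf6* and *Dusp6*. In SPG, *Nr4a1*, an orphan nuclear receptor, had a log2 fold change of 2.78 ± 0.47 (adjusted p = 0.00262). *Ctgf*, a matricellular protein of fibroblasts, went from 0 to 1 read in the WT SPG libraries to 79 to 341 in SKO SPG (adjusted p = 0.000497). In PreL the named genes were *Nfkbia*, the NF-kB inhibitor (2.12 ± 0.38, adjusted p = 0.00604), and *Gadd45g*, a growth arrest gene (1.86 ± 0.43, adjusted p = 0.0180). In LZ they were *Zfp36l1*, a relative of *Zfp36* (2.05 ± 0.19, adjusted p = 0.000133), and *Klf4*, a Krüppel-like factor (1.85 ± 0.19, adjusted p = 0.000210). *Arc* was the 1 gene called lower in LZ.

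Of 12 other AP-1 subunit genes, 7 were tested at each stage. The count called higher was 1 in SPG (*Maf*, a large MAF protein, at 2.25 ± 0.48, adjusted p = 0.00980), 0 in PreL by limma (1 by edgeR, 2 by DESeq2 and 3 at an unadjusted p-value under 0.05) and 2 in LZ (*Maf* and *Atf7*), with 0 called lower and medians of 0.30, 0.39 and 0.90. Over all genes, limma called 3.95%, 5.32% and 13.4% higher in these stages, and 7 genes are too few to compare with those shares. Of 30 upstream kinases and factors, 26 were tested. In SPG 0 of them were called in either direction by limma, edgeR or DESeq2, with 3 higher and 2 lower at an unadjusted p-value under 0.05 (median -0.01). In PreL 1 was called higher (*Rps6ka2*, median 0.04), near the 5.32% over all genes. In LZ 3 were called higher (*Mapk8*, *Map2k1* and *Elk1*) and 6 lower (median 0.22), beside 13.4% and 25.8% of all genes, so that both LZ counts were near the share over all genes. Those of at least 100 reads with the largest change in LZ were *Mapk10*, which encodes JNK3, at -2.55 ± 0.32 (adjusted p = 0.000548), and *Crem*, a CREB relative used by spermatids, at -2.33 ± 0.30 (adjusted p = 0.000613).

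**Figure D5:**
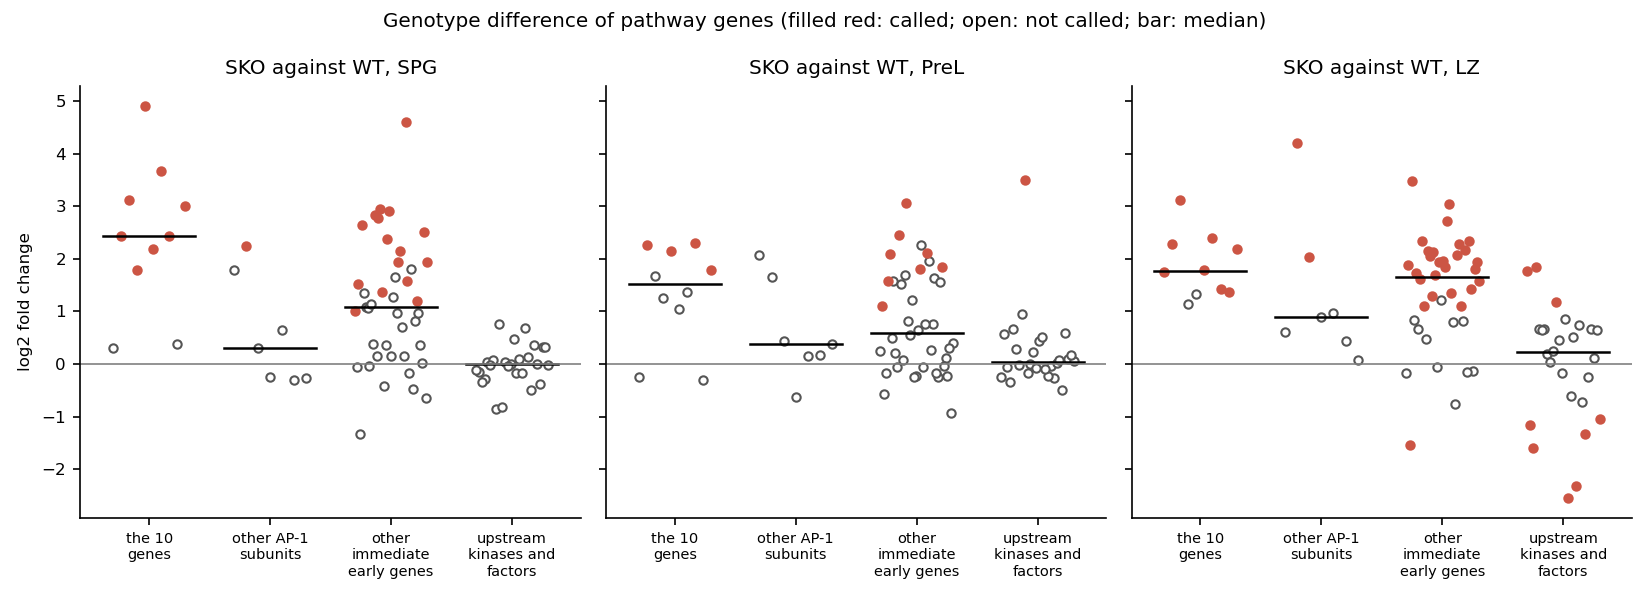
Log2 fold change of SKO against WT for the 10 genes and for 3 lists of pathway genes at each stage, with filled points for called genes and bars for list medians. The medians of the 10 genes (2.44, 1.52 and 1.77) and of the other immediate early genes (1.09, 0.60 and 1.65) lie above 0 at each stage, and those of the upstream kinases and factors (-0.01, 0.04 and 0.22) near 0.

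As a description over the 17 libraries, which share stage and genotype, the log2 values of the 10 genes were compared pairwise. Pearson's r over the 28 pairs of genes other than *Fosl2* and *Jund* ranged from 0.71 to 0.97, with *Fos* and *Egr1* the most alike. Pairs with *Fosl2* ranged from 0.30 to 0.59 and pairs with *Jund* from 0.28 to 0.62. After subtraction of group means, r was highest for *Fos* and *Zfp36* (0.94) and lowest for *Jun* and *Junb* (0.00). Among 8659 other genes, each averaging 100 reads or more, those most like *Fos* included *Ddx3x* (0.94), an RNA helicase gene, *Nucb2* (0.91), *Fabp3* (0.90) and *Vcam1* (0.90). For *Jun* they were *Ddx3x* (0.94), *Nfkbia* (0.93), *D1Ertd622e* (0.92), *Aldh1a1* (0.92) and *Mgst1* (0.91). The summed Leydig markers followed *Egr1* with r = 0.94, *Jun* with 0.92 and *Fos* with 0.90, and after subtraction of group means with 0.88, 0.69 and 0.90. *Jund* followed them with 0.50 and 0.43, and *Fosl2* with 0.34 and 0.48. Other lists followed some of the genes, with r = 0.86 and 0.86 for macrophage markers and *Fos*, 0.88 and 0.35 for macrophage markers and *Fosb* (Leydig 0.79 and 0.51), and 0.72 and 0.44 for Sertoli markers and *Jund*. Over the 10 genes, r with stromal markers ranged from 0.09 (*Jund*) to 0.78 (*Fosb*). After subtraction of group means it ranged from -0.22 (*Jund*) to 0.41 (*Jun*). Peritubular markers ranged from 0.14 (*Jund*) to 0.80 (*Fosb*), and after subtraction from 0.02 (*Jund*) to 0.68 (*Jun*). Endothelial markers ranged from -0.005 (*Jund*) to 0.58 (*Junb*), and after subtraction from -0.25 (*Atf3*) to 0.59 (*Junb*). Sertoli markers and *Fosl2* gave -0.08 and 0.21.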

How the data were processed

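RNA-seq of WT and *Nat10*-SKO SPG, PreL and LZ cells gave 17 libraries. The authors mapped the reads to mm10 (TopHat2 2.1.1 in the submitters' processing notes), obtained gene counts from uniquely mapped reads with HTSeq 0.11.2, and deposited signal values, in which 1 factor per library, derived from ERCC spike-ins and cell numbers, multiplies the counts. Each value was a whole multiple of its library's smallest value (100% within 0.01), which gave the reads. The table holds no further per-sample columns.

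Members and gene lists were chosen with earlier results of these data known, so list counts are descriptions. For each comparison the values were rescaled with median-of-ratios factors, and genes averaging 10 reads or more were kept. log2(value + 10) was tested with limma 3.58.1 (R 4.3.3, mean-variance trend). limma served because calibrated values are not counts. Alternatives were the calibrated values without rescaling, TMM, pseudocounts of 1 and 50, no filter or 50 reads, edgeR 4.0.16, DESeq2 1.42.0, a joint fit of all libraries, leaving out each replicate, a block for the replicate number, and no threshold on the fold. The tests were also run on simulated reads with the same spread for every gene and changes planted only in more abundant genes. That run does not cover low genes or genes that vary more between libraries than was simulated.

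Named genes were the 10 members, *Nat10*, in each pathway list and stage the 2 called genes with the largest change and a mean of at least 100 reads, and the 5 genes most like *Fos* and *Jun* (1 of which is not reported here), and the 2 most abundant markers of a list that moved with a result. Genes named beyond these were chosen after their values were seen. Positions and exon lengths came from GENCODE mouse release M21 (GRCm38).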

Additional observations from a re-analysis of the deposited data

Results flagged for a closer look

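The genotype difference itself differed between stages for 4 of the 10 genes, by an interaction term fitted with limma over the 17 libraries. From SPG to PreL it changed by -2.37 on the log2 scale for *Fos* (adjusted p = 0.0496) and by -3.19 for *Fosb* (adjusted p = 0.0432). DESeq2 called both and edgeR neither. Over all genes, 0.111% of 13530 were called lower in this contrast. Both adjusted p-values lay close to the threshold, and 0 or 1 of the 10 genes was called when any library outside WT LZ was left out. From PreL to LZ it changed by 1.99 for *Fosl2* (adjusted p = 0.0114) and by 1.67 for *Jund* (adjusted p = 0.00170). Both were called by edgeR and DESeq2 and neither on the calibrated scale. Over all genes, 15.1% were called higher in this contrast and 23.1% lower, so 2 of 10 called higher is near the share over all genes.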

How the results depend on the processing

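The SPG count of members called higher stayed between 6 and 8 over the 17 alternatives run. In PreL the count (4) was 8 on the calibrated scale, 8 with DESeq2, and 0 to 8 with 1 replicate left out, and in LZ (8) it was 5 to 10 with 1 left out. Over all genes, 3459 of 13132 were called higher for the genotype in PreL on the calibrated scale and 904 with DESeq2. In WT, the count from SPG to PreL (1 higher) was 0 to 1 with 1 replicate left out. From PreL to LZ (0) it was 8 higher on the calibrated scale, 1 lower with DESeq2 and 0 to 1 lower with 1 left out, and the median of the members (0.40) ranged from -0.30 to 0.86. From PreL to LZ in WT, 10992 of 13759 genes were called higher on the calibrated scale. In SKO, the count from SPG to PreL (1 lower) was 0 lower and 1 higher on the calibrated scale and 2 lower with DESeq2, and the median (-0.78) was 0.21 on the calibrated scale. From PreL to LZ (3 higher) it was 8 on the calibrated scale (4409 of 12477 genes over all), 5 without the fold threshold and 2 to 6 with 1 left out. For PreL minus SPG (2 lower), 1 was called on the calibrated scale, 1 with TMM, 1 at a mean of at least 50 reads, and 0 with a pseudocount of 1, without the filter or with edgeR, and 0 to 2 with 1 left out. For LZ minus PreL (2 higher), 0 were called on the calibrated scale and 1 to 3 with 1 left out.

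Compared groups share 1 to 3 replicate numbers, and the main tests treated the libraries as unpaired. Deviations from group means of same-numbered libraries correlated from -0.19 to 0.13. With so few libraries per group, this cannot show whether libraries of the same number were prepared together. With the replicate block, 8 members were called in PreL, 0 from SPG to PreL in WT and 3 lower from SPG to PreL in SKO. Over all genes, the block called 1256 of 13132 higher in PreL. It called 416 of 12657 higher from SPG to PreL in WT, and 38 of 12882 lower in SKO. For PreL minus SPG 0 members were called, beside 4 of 13530 genes called lower. *Fosl2* from SPG to PreL in WT turned to 0.27. Where only the compared groups were fitted, a library whose replicate number the other group lacks did not inform the difference. In PreL this set aside SKO PreL 3 and a WT library, and 8 members were also called without SKO PreL 3. That PreL count is therefore not a separate check. From SPG to PreL, libraries of both stages were set aside in each genotype. The block could not be fitted for LZ against PreL in WT, which share 1 number.

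No difference of a gene that had been called turned in direction. Among the others, those that turned on the calibrated scale were *Fosl2* (0.43) and *Jund* (0.41) for the genotype in PreL, *Ier2* from SPG to PreL in WT (0.037), and from PreL to LZ in WT *Fos* (1.72), *Fosl2* (0.52), *Jund* (1.37) and *Atf3* (0.68). From SPG to PreL in SKO they were *Fos* (0.062), *Fosl2* (0.34), *Jun* (0.88), *Junb* (0.018), *Atf3* (0.086), *Egr1* (0.42) and *Ier2* (0.45), and from PreL to LZ in SKO *Fosb* (0.76). For PreL minus SPG they were *Fosl2* (0.38), *Jun* (0.55), *Junb* (0.69), *Jund* (0.28), *Ier2* (0.41) and the median (0.042), and for LZ minus PreL *Egr1* (-0.43), *Zfp36* (-0.076) and the median (-0.25). *Junb* turned for PreL minus SPG with edgeR (0.029) and *Jun* for LZ minus PreL with a pseudocount of 50 (0.42).

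With 1 replicate left out, differences that turned ranged as follows. From SPG to PreL in WT, *Atf3* ranged from -0.049 to 1.09, *Ier2* from -0.28 to 0.14 and *Fosl2* from -0.31 to 0.23. From PreL to LZ in WT, *Fos* ranged from -0.48 to 0.29, *Fosb* from -0.072 to 1.55, *Egr1* from -0.16 to 0.93, *Ier2* from -0.44 to 1.47, *Zfp36* from -0.00068 to 0.80 and *Atf3* from -1.75 to 0.44. In SKO, *Jun* from SPG to PreL ranged from -0.44 to 0.27, and from PreL to LZ *Fosb* from -0.34 to 0.17 and *Atf3* from -0.068 to 1.05. For PreL minus SPG, *Junb* ranged from -0.71 to 0.10, and for LZ minus PreL *Jun* from -0.44 to 0.21, *Ier2* from -1.09 to 0.81, *Egr1* from -0.14 to 0.94 and the median from -0.046 to 1.03. Apart from the calibrated scale, whose shift of the median gene is part of its construction, and fewer libraries, the cause was not tested. Low counts limit *Fosb*, *Jun* and *Atf3* in WT.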
